A study of Bos indicus with 6 samples.

Results

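Potassium channel genes were taken from the isthmus expression table as all rows whose gene symbol, the part of the row name that follows the Ensembl identifier, begins with KCN followed by a letter from A to V or X. The rule found 92 rows of the 24616 in the table, which carry 91 symbols because KCNMB3 stands on 2 Ensembl genes. By symbol, 39 rows were pore subunits of voltage-gated channels, 12 were accessory subunits or regulators of these, 12 were calcium-activated channels with their SLO relatives and beta subunits, 14 were inward rectifiers and 15 were two-pore channels. The rule used names and no measured value.

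KCNMA1, the calcium-activated channel with the most reads, had a mean normalized count 2.02 times higher in the 3 LF/LCL cows than in the 3 SF/SCL cows, and the groups did not overlap. KCNK1, KCNK2 and both KCNMB3 rows lay higher in every SF/SCL cow than in any LF/LCL cow. For many other members, among them KCNE4, KCNG1, KCNH3, KCNJ11, KCNRG, KCNJ2 and KCNN3, SF/SCL cows 856 and 97 lay far from the LF/LCL cows while the remaining SF/SCL cow, 489215, lay close to them, among them or on the other side. With all 6 cows, 0 members had an adjusted p under 0.05 in limma, the threshold for a call here, and without cow 489215, 16 of 56 did (28.6%, against 18.2% of all genes tested). That cow was singled out because an earlier description of these same libraries had set it apart. Calls made without it are therefore a description and not independent support.

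The samples were isthmus, the segment of the oviduct next to the uterus, from healthy multiparous Nelore (Bos indicus) cows, with 1 RNA-seq library per cow. In LF/LCL (large follicle and large corpus luteum; cows 617, 79 and 527) progesterone devices came out 42 h before GnRH, and these cows had an extra prostaglandin F2α (PGF) injection on the day of device insertion. In SF/SCL (small follicle and small corpus luteum; cows 856, 489215 and 97) they came out 30 h before GnRH, without that extra injection. All cows of both groups had been presynchronized with 0.5 mg cloprostenol and 1 µg buserelin given 7 days apart, received a 1 g progesterone device with 2 mg estradiol benzoate 10 days before GnRH, were given PGF when the device came out and again 6 h later, and were killed on day 4 after GnRH. The sequenced cows were not a random draw, since the authors ranked the animals on ovarian and hormone measures and took the extremes of each group, and the piece of oviduct held its whole wall. Per-cow values below are always in the order 617, 79 and 527 for LF/LCL and 856, 489215 and 97 for SF/SCL.

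Potassium channels let potassium leave the cell and so hold the membrane potential negative. In smooth muscle this opposes calcium entry and contraction. Large-conductance calcium-activated channels and ATP-sensitive inward rectifiers are known for such a braking role, and voltage-gated channels repolarize the membrane after each depolarization. In secretory epithelium, potassium exit through calcium-activated, two-pore and KCNQ channels keeps up the driving force for chloride and fluid secretion, and two-pore channels carry a background leak in many cell types.

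The values are read counts divided by a size factor of each library, called normalized counts here, and 100% of them could be turned back into whole reads. Libraries held from 23899117 to 34193164 counted reads, with a median of 28659214 in LF/LCL and 25472906 in SF/SCL, so that a count of 0 allows up to 3 reads, or a normalized count of 2.28 in the deepest library and 3.99 in cow 489215. These limits cover counting error only. Cow 489215 lay outside the range of the other 5 cows for 72.4% of the 15387 tested genes. Among the tested potassium channel rows it did so for 29 of 54 (53.7%), 19 below (35.7% of all genes) and 10 above (36.7%). Smooth muscle markers (7 of 8 found, ACTG2 was not) summed to 705137 to 825682 in LF/LCL, 320565 in cow 856, 386979 in cow 97 and 1217820 in cow 489215, where 5 of the 7 were above every other cow. The 8 ciliated cell markers, of which PIFO was at 0, summed to 16074 to 19113, 37629, 41924 and 11028 in the same order. Because the tissue was not separated into cell types, fewer cells of a type and less RNA per cell cannot be told apart. No sequence is shown, because the reference used here held names and gene order but no sequence or gene length, and for that reason counts are compared between cows and not as levels between genes.

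Of the 92 rows, 5 had 0 reads in every library: KCNA10, KCNH5, KCNV2, KCNJ5 and KCNK15. Another 15 had at most 3 reads in any library. A mean normalized count above 100 was found for 24 rows. The members took 0.0920% to 0.106% of the reads of an LF/LCL library and 0.0683% to 0.0915% of those of an SF/SCL library, so that the highest SF/SCL share lay just below the lowest LF/LCL share. The number of members with more than 3 reads was 62 to 67 in LF/LCL and 56 to 60 in SF/SCL. It was counted on raw reads at a fixed cutoff in libraries of unlike depth. No matching count over all genes is given, so it is not a result about the members.

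**Figure D1:**
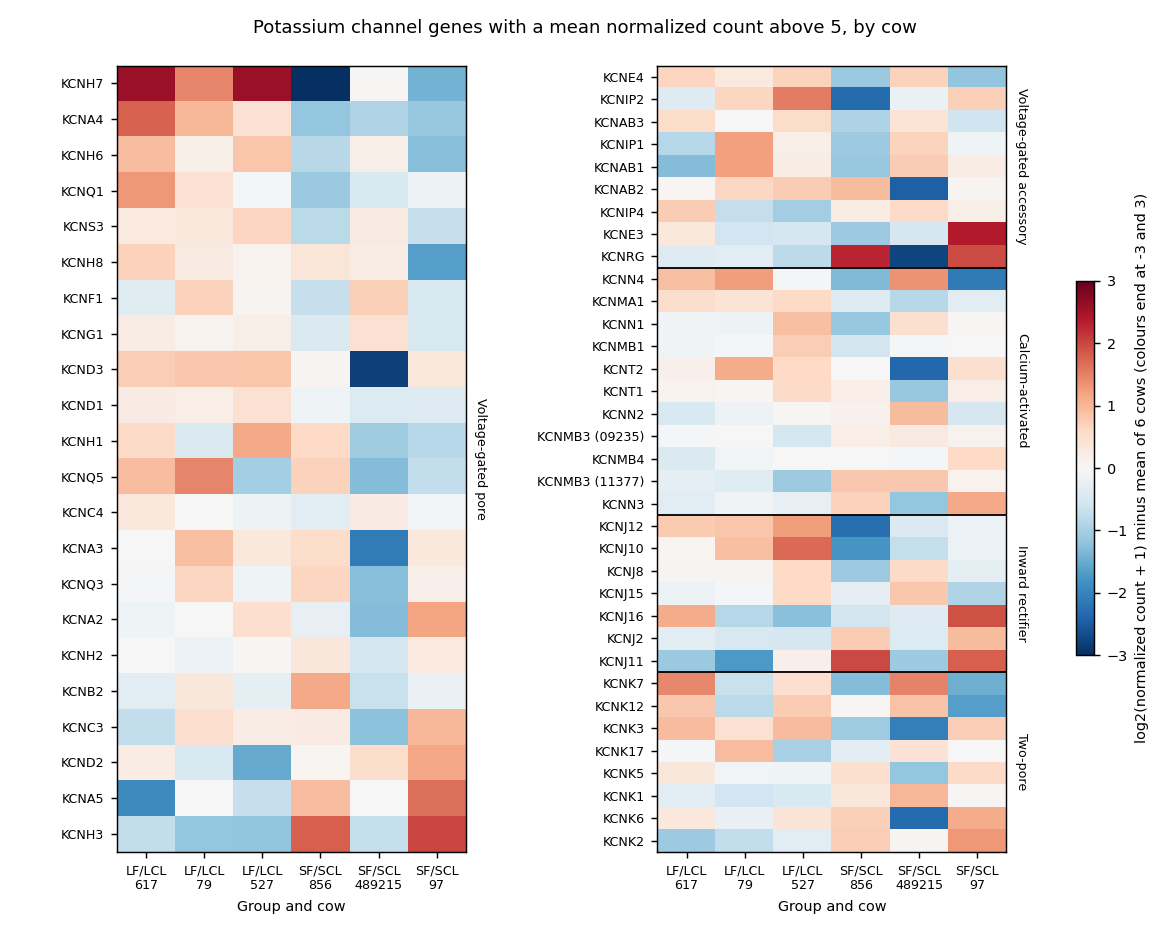
Heat map of 57 of the 59 potassium channel rows with a mean normalized count above 5 (the other 2 are not reported here), ordered by class, with 1 column per cow; colour is log2(normalized count + 1) minus the mean of the 6 cows, and colours end at -3 and 3. KCNH7, KCNA4 and KCNMA1 are higher in all LF/LCL cows than in any SF/SCL cow, and for KCNRG, KCNH3 and KCNJ11 the high values stand in cows 856 and 97 while cow 489215 resembles the LF/LCL cows or lies below them.

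The comparison of SF/SCL with LF/LCL asks how the follicle and corpus luteum a cow had relates to these transcripts. Rows with a mean above 5 and above their own SD over the 6 libraries were tested, which kept 54 members. Of the other 38, 33 had a mean at or under 5 and 5 (KCNJ11, KCNRG, KCNE3, KCNH3 and KCNH7) varied too much, since a member with high values in a few cows fails the filter on the SD. Log2 fold changes are SF/SCL over LF/LCL and are given ± SE, on the scale of log2(normalized count + 1), which understates the change of members with low counts. By limma with Benjamini-Hochberg adjustment over all tested genes, 0 of 54 members were called (0.0% of all genes), and the smallest adjusted p of a member was 0.367, for KCNMA1. The edgeR quasi-likelihood test on the recovered reads also called 0, with 11 members at an unadjusted p under 0.05 (8.49% of all genes), and DESeq2 called 2, KCNMA1 and KCNA4 (2.66% of all genes). At an unadjusted p under 0.05 limma gave 9 members of 54 (16.7%, against 8.66% of all tested genes). Of these, 4 were higher in SF/SCL (4.19% of all genes): KCNMB3, KCNK1, KCNK2 and KCNA5. The 5 that were higher in LF/LCL (4.48% of all genes) were KCNMA1, KCNJ10, KCNJ12, KCNA4 and KCNH6. Scaled by library size alone, the count was 11, of which 2 were higher in SF/SCL. The count also hung on single cows, being 3 without LF/LCL cow 79 or 527, 4 without cow 856 and 26 without cow 489215. For library size scaling and the leave-outs no share of all genes is given. These counts therefore show only how the count moved and are not a result about the members. Without cow 489215 the share of all genes called by limma also rose, from 0.0% to 18.2%. For the counts by class below, the shares of all genes are the same 4.19% and 4.48% at an unadjusted p under 0.05 (limma). For limma calls without cow 489215 they are 10.3% higher in SF/SCL and 7.92% higher in LF/LCL.

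In 13 members (24.1%, against 18.1% of all genes) the groups did not overlap, 4 with every SF/SCL cow higher (9.51% of all genes) and 9 with every LF/LCL cow higher (8.6%). Members higher in SF/SCL by their fitted fold change were 17 of 54 (31.5%, against 48.6% of all tested genes). The other 37 (68.5%) were higher in LF/LCL. The median log2 fold change was -0.37 over the members and -0.02 over all genes tested. By class, it was -0.38 for the calcium-activated channels, -0.38 for the inward rectifiers, -0.19 for the two-pore channels, -0.73 for the accessory subunits and -0.46 for the voltage-gated pores. Without cow 489215 these medians were -0.04, 0.04, 0.18, -0.65 and -0.55. The medians of the first 3 classes were thus near or above 0 without that cow, and those of the accessory subunits and voltage-gated pores stayed below 0. Leaving out each cow in turn moved the medians of the 5 classes, in the same order, between -0.52 and 0.04, -0.50 and 0.04, -0.38 and 0.18, -0.89 and -0.33, and -0.70 and -0.33. The calcium-activated median was above 0 without cow 856 alone, and that of the inward rectifiers without cow 489215 or LF/LCL cow 79. The medians and directions also depended on the filter. Of the members that failed it on the SD, KCNJ11, KCNRG, KCNE3 and KCNH3 had a higher mean in SF/SCL and KCNH7 in LF/LCL. The accessory median was -0.37 with the filter on the mean alone and -0.24 with no filter. With no filter the voltage-gated pore median was -0.32. The two-pore median was -0.0057 with no filter and -0.0059 with DESeq2.

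Among calcium-activated channels, KCNMA1, the pore of the large-conductance BK channel, had normalized counts of 6393, 5921 and 6745 in LF/LCL and 3383, 2488 and 3566 in SF/SCL. All SF/SCL cows were below all LF/LCL cows, and cow 489215 was the lowest. The means were 6353 ± 413 and 3146 ± 577 (SD, n = 3 each). The log2 fold change was -1.03 ± 0.20 by limma, with an adjusted p of 0.367, and by DESeq2 the adjusted p was 0.00221. Without cow 489215 it was -0.87 ± 0.093 with an adjusted p of 0.00352, past the threshold. Of the 7 smooth muscle markers, MYH11 was likewise lower in all SF/SCL cows, at 157535, 137623 and 191119 in LF/LCL and 82654, 116653 and 122911 in SF/SCL, while 5 others, ACTA2 and TAGLN among them, were highest in cow 489215. Their part in the KCNMA1 difference was not tested.

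The beta subunits of the BK channel, which tune its calcium sensitivity, did not share this pattern. KCNMB1, the smooth muscle beta subunit, had counts of 1421, 1471 and 2549 in LF/LCL and 1049.7, 1506 and 1543 in SF/SCL, with overlapping groups (-0.38 ± 0.30, adjusted p = 0.822 by limma). For KCNMB4, a beta subunit best known from neurons, the counts were 347, 439 and 465 and 468, 447 and 704. Per read of KCNMA1, KCNMB4 reads numbered 0.0544, 0.0742 and 0.0689 in LF/LCL and 0.138, 0.180 and 0.198 in SF/SCL, without overlap, and KCNMB1 reads 0.222, 0.248 and 0.378 against 0.310, 0.605 and 0.433. These are ratios of normalized counts and not of molecules. KCNMB4 counts alone overlapped between the groups (0.35 ± 0.27, adjusted p = 0.810 by limma). The KCNMB4 ratio thus carries the KCNMA1 difference in its divisor and is not a separate result. KCNMB3, another beta subunit, had 178, 165 and 99.3 and 374, 371 and 231 on its more abundant row, every SF/SCL cow being higher (1.15 ± 0.36, adjusted p = 0.445 by limma; 1.03 ± 0.34 and 0.0824 without cow 489215). Its other row, with counts of 12.6, 13.1 and 8.78 and 15.2, 15.98 and 14.1, also did not overlap between groups. In the RefSeq table of another bovine assembly KCNMB3 overlaps ZNF639 and PIK3CA, and KCNMB1 overlaps KCNIP1. Whether counting used the strand is not stated, so that reads of overlapping genes cannot be told apart.

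Small-conductance channels, opened by calcium through calmodulin, varied widely within SF/SCL. KCNN3 had counts of 223, 257 and 233 in LF/LCL and 450.4, 122 and 612 in SF/SCL, so that cows 856 and 97 were above LF/LCL and cow 489215 below it. Its log2 fold change was 0.45 ± 0.60 with all cows and 1.14 ± 0.19 without cow 489215, where limma called it (adjusted p = 0.0113). For KCNN2, with 405, 497 and 573 in LF/LCL and 606, 1082 and 389 in SF/SCL, cow 489215 was instead the highest. KCNN4, the intermediate-conductance channel of epithelia and lymphocytes, had low counts of 25.1, 31.9 and 12.3 and 4.56, 34.6 and 2.17, lower in cows 856 and 97 than in any other cow. Without cow 489215 its log2 fold change was -2.42 ± 0.61 (adjusted p = 0.0400 by limma). KCNT2, a sodium-activated relative, was at 42.9, 83.5 and 57.97 in LF/LCL and 38.7, 6.66 and 54.2 in SF/SCL, and thus 8.33 times lower in cow 489215 than in the mean of the other cows. In all, 11 of 12 rows of the class were tested, 1 in each direction had an unadjusted p under 0.05, and 1 (KCNN3) and 2 (KCNMA1, KCNN4) were called higher in SF/SCL and in LF/LCL without cow 489215.

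Summed over the class, normalized counts were 9133, 8962 and 10869.5 in LF/LCL and 6469, 6128 and 7207 in SF/SCL. The groups did not overlap, and KCNMA1 made up 62.1% to 70.0% of the class in LF/LCL and 40.6% to 52.3% in SF/SCL. With KCNMA1 left out the sums were 2740.2, 3041 and 4125 against 3086, 3640.0 and 3641, which overlapped. The lower class total in SF/SCL was therefore that of KCNMA1.

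Among inward rectifiers, KCNJ8 and KCNJ11 form the pores of ATP-sensitive channels, the first with the sulfonylurea receptor ABCC9 in vascular and other smooth muscle, the second with ABCC8 in endocrine cells. KCNJ8 had counts of 862, 868 and 1241 in LF/LCL and 383, 1217 and 678 in SF/SCL. Cows 856 and 97 were below LF/LCL and cow 489215 was within its range. The log2 ratio of the groups was -0.52 ± 0.43 with all cows and -0.94 ± 0.28 without cow 489215, with adjusted p-values of 0.834 and 0.0636 by limma. KCNJ11 was at 46.1, 30.04 and 112 in LF/LCL and 401, 46.6 and 352 in SF/SCL, high in cows 856 and 97 only. It failed the filter on the SD with all cows and was called without cow 489215 (2.78 ± 0.53, adjusted p = 0.0182). KCNJ11 reads per KCNJ8 read were 0.0534, 0.0346 and 0.0906 in LF/LCL and 1.05, 0.0383 and 0.519 in SF/SCL. The ratio was thus higher in cows 856 and 97 than in any other cow.

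The receptors followed the order of their pores in part. ABCC9 had counts of 943, 1362 and 1591 in LF/LCL and 633, 379 and 696 in SF/SCL, every SF/SCL cow being lower (-1.20 ± 0.32, adjusted p = 0.405 by limma). Without cow 489215 it was called (-0.93 ± 0.22, adjusted p = 0.0334). In cow 489215 ABCC9 was at its lowest while KCNJ8 was near its highest, so that ABCC9 reads per KCNJ8 read were 0.312 there and 1.03 to 1.65 in the other cows. ABCC8 was at 250.2, 37.5 and 152 in LF/LCL and 416, 83.9 and 429 in SF/SCL, with cows 856 and 97 above the others as for KCNJ11 (1.89 ± 0.73 without cow 489215, adjusted p = 0.124, not called). ABCC9 lies next to KCNJ8 and ABCC8 next to KCNJ11 in the RefSeq gene order.

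KCNJ2, a strong inward rectifier that sets the resting potential of excitable cells, had counts of 339, 304 and 300.4 in LF/LCL and 719, 321 and 815 in SF/SCL. The mean of cows 856 and 97 was 2.44 times that of LF/LCL, and cow 489215 was within the LF/LCL range. The log2 fold change was 0.87 ± 0.38 (adjusted p = 0.611 by limma) and, without cow 489215, 1.28 ± 0.14 (adjusted p = 0.00359). Its relative KCNJ12 had the opposite direction at low counts, 13.6, 14.1 and 19.3 in LF/LCL and 0.76, 5.33 and 6.503 in SF/SCL, and so did KCNJ10, a glial and epithelial rectifier, with 5.23, 10.3 and 18.4 and 0.76, 2.66 and 4.33. In both the groups did not overlap, and the adjusted p-values by limma were 0.495 and 0.531, or 0.0903 and 0.157 without cow 489215. KCNJ16, which pairs with KCNJ10, was at 35.6, 8.45 and 6.15 and 10.6, 11.98 and 62.9, scattered in both groups. Of the 14 rows, 6 were tested, 0 and 2 had an unadjusted p under 0.05 with higher counts in SF/SCL and LF/LCL, and 2 (KCNJ2, KCNJ11) were called without cow 489215, both higher in SF/SCL. The other 8 inward rectifiers had normalized counts of at most 9.32, and KCNJ3, with 3.51 in cow 527, had 0 reads in all SF/SCL libraries.

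Among two-pore channels, KCNK1, a weak background channel of epithelia, had counts of 432, 369.8 and 398 in LF/LCL and 691, 1086 and 566 in SF/SCL. Every SF/SCL cow was higher, cow 489215 most of all, and the means were 400.0 ± 31.3 and 781 ± 272 (SD, n = 3 each). Its log2 fold change was 0.91 ± 0.29 (adjusted p = 0.452 by limma), and without cow 489215 it was 0.65 ± 0.15 (adjusted p = 0.0322, called). Epithelial markers other than OVGP1 (6 genes) summed to 24175 to 37804 in LF/LCL and to 43344, 58987 and 51146 in SF/SCL, also highest in cow 489215. Singly they differed: PAX8 was lowest in cow 489215, at 1441, 469 and 1437 in SF/SCL against 663, 503 and 539 in LF/LCL, and KRT18 was highest in cow 97. Their part in the KCNK1 difference was not tested. KCNK2, a stretch-sensitive channel of muscle and nerve, had low counts of 4.19, 5.63 and 7.91 in LF/LCL and 17.5, 10.7 and 26.01 in SF/SCL, again without overlap (1.42 ± 0.52, adjusted p = 0.504; 1.73 ± 0.53 and 0.0686 without cow 489215, by limma).

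In several other two-pore channels the SF/SCL cows lay apart from each other. KCNK5, an alkaline-activated channel of transporting epithelia, had 318, 239 and 232 in LF/LCL and 350.2, 112 and 376 in SF/SCL, and KCNK6 had 61.8, 42.2 and 65.00 and 82.8, 9.32 and 109. In both, cow 489215 was the lowest of all cows, and cows 856 and 97 were above LF/LCL. With all cows their log2 fold changes were -0.086 ± 0.51 and -0.30 ± 0.91 in limma and above 0 in edgeR and DESeq2, so no direction is given for them. KCNK3, an acid-inhibited channel, was at 135, 94.8 and 135 in LF/LCL and 32.7, 15.98 and 117 in SF/SCL, lowest in cow 489215. KCNK7, which gives no current on its own, showed the reverse, with 72.2, 15.96 and 36.9 and 9.88, 74.6 and 8.67, and cows 856 and 97 at the bottom. Over the class, 8 of 15 rows were tested, 2 and 0 had an unadjusted p under 0.05 with higher counts in SF/SCL and LF/LCL, and 1, KCNK1, was called without cow 489215.

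Class sums of the two-pore channels were 1092, 838 and 932 in LF/LCL and 1231, 1381 and 1243 in SF/SCL, without overlap. KCNK1 held 39.6% to 44.1% of the class in LF/LCL, and 56.2%, 78.7% and 45.5% in SF/SCL. Without KCNK1 the sums overlapped, at 659, 468 and 534 against 539, 294 and 677. For the inward rectifiers the sums overlapped from the start (1308, 1249 and 1718 against 1525, 1615 and 1928), and the share of KCNJ8 was 65.9% to 72.2% in LF/LCL and 25.1%, 75.4% and 35.2% in SF/SCL.

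The potassium channel row with the most reads was a voltage-gated subunit. KCNG1, an electrically silent subunit that modifies other voltage-gated pores, had counts of 6527, 6017 and 6298 in LF/LCL and 4126, 7642 and 4000.2 in SF/SCL. Cows 856 and 97 were below the LF/LCL cows and cow 489215 above them. With all cows the log2 fold change was -0.32 ± 0.28 (adjusted p = 0.839 by limma), and without cow 489215 it was -0.63 ± 0.083 (adjusted p = 0.00629). KCNS3, another silent subunit, was at 105, 106 and 134 and 47.9, 103 and 52.02. Its groups did not overlap, though cow 489215 came within a few counts of the lowest LF/LCL cow, and it was called without that cow (-1.18 ± 0.27, adjusted p = 0.0293 by limma).

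The ether-a-go-go group divided. KCNH2, the delayed rectifier that ends the cardiac action potential, had counts of 2266, 1991 and 2311 in LF/LCL and 2869.7, 1596 and 2777 in SF/SCL. Cows 856 and 97 were above LF/LCL and cow 489215 below it, so the log2 fold change was 0.096 ± 0.26 with all cows and 0.37 ± 0.1 without cow 489215 (adjusted p = 0.0487 by limma, just past the threshold). KCNH3, known mainly from brain, differed far more, with 368, 276 and 271 in LF/LCL and 2141, 373 and 2482 in SF/SCL. Cows 856 and 97 had several times the count of any LF/LCL cow, and cow 489215 was only just above the highest of them. KCNH3 failed the filter on the SD with all cows, and without cow 489215 its log2 fold change was 2.93 ± 0.17 (adjusted p = 0.00148 by limma), the smallest adjusted p among the 56 members tested there. KCNH3 reads per KCNH2 read were 0.163, 0.139 and 0.117 in LF/LCL and 0.746, 0.234 and 0.894 in SF/SCL.

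KCNH6 and KCNH7, the close relatives of KCNH2 found mostly in the nervous system, went the other way. KCNH6 had 38.7, 22.5 and 36.01 in LF/LCL and 10.6, 22.6 and 7.59 in SF/SCL (-1.29 ± 0.53, adjusted p = 0.566 by limma). Without cow 489215 limma called it (adjusted p = 0.0467) and edgeR did not (adjusted p = 0.0519). KCNH7, which was chosen after its values were seen, had 224, 102 and 223 in LF/LCL and 0, 37.3 and 13.01 in SF/SCL, every SF/SCL cow being lower. In cow 856 it had 0 reads, which allows a normalized count of up to 2.28. KCNH7 failed the filter on the SD with all cows and was called without cow 489215 (adjusted p = 0.0189 by limma).

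Among the A-type channels, which inactivate quickly, KCNA4 had counts of 47.1, 27.2 and 18.4 in LF/LCL and 5.32, 6.66 and 5.42 in SF/SCL. All SF/SCL cows were lower, with close values, and the means were 30.9 ± 14.7 and 5.798 ± 0.746 (SD, n = 3 each). The log2 fold change was -2.14 ± 0.49, with an adjusted p of 0.376 by limma, 0.0200 by DESeq2 and, without cow 489215, 0.0348 by limma. KCND3 had 212, 223 and 227 in LF/LCL and 134, 17.3 and 156 in SF/SCL, the groups not overlapping and cow 489215 being 11.0 times below the mean of the other cows. KCND1 was at 147, 143 and 169.5 and 113, 93.2 and 94.3, also without overlap. Neither was called with or without cow 489215: by limma the adjusted p was 0.668 and 0.0688 for KCND3, and 0.624 and 0.137 for KCND1.

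KCNA5, a delayed rectifier of heart and vascular muscle, ran opposite to KCNA4, with 25.1, 98.6 and 59.7 in LF/LCL and 186, 97.2 and 310.0 in SF/SCL. The groups overlapped by a single cow, since cow 489215 lay just below LF/LCL cow 79. For KCNA5 the log2 fold change was 1.73 ± 0.64 (adjusted p = 0.514 by limma) and 2.16 ± 0.58 without cow 489215 (adjusted p = 0.0477). KCNQ1, which carries potassium out of epithelia and heart muscle together with KCNE subunits, was at 61.8, 33.8 and 23.7 and 10.6, 17.3 and 21.7, without overlap (-1.16 ± 0.51, adjusted p = 0.609; 0.175 without cow 489215). KCNQ5 (53.4, 78.8 and 13.2 and 45.6, 10.7 and 16.3) and KCNA3, a lymphocyte channel (26.2, 49.7 and 32.5 and 38.7, 5.33 and 32.5), had their lowest values in cow 489215. KCNA2 was near the filter, with at most 11.9 in any cow, and its direction turned with the method. Of 39 rows, 22 were tested, 1 and 2 had an unadjusted p under 0.05 with higher counts in SF/SCL and LF/LCL, and 3 and 5 were called without cow 489215. Class sums were alike in size, 11687 to 12300.3 in LF/LCL and 11317 to 11841 in SF/SCL, while the share of KCNG1 in them was 51.5% to 53.1% in LF/LCL and 35.3%, 64.5% and 35.3% in SF/SCL.

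Among accessory subunits, KCNE4, which dampens several voltage-gated channels and is known from vascular muscle, had counts of 1708, 1323 and 1715 in LF/LCL and 504, 1755 and 478 in SF/SCL. The mean of cows 856 and 97 was 0.310 of that of LF/LCL, and cow 489215 was just above all LF/LCL cows. For KCNE4 the log2 fold change was -1.06 ± 0.52 with all cows (adjusted p = 0.647 by limma) and -1.68 ± 0.15 without cow 489215 (adjusted p = 0.00240). KCNRG, a soluble regulator that hinders the assembly of voltage-gated channels, had 156, 163 and 119 in LF/LCL and 1001, 29.3 and 793 in SF/SCL. It was thus highest in cows 856 and 97 and lowest, by 15.2 times against the mean of the others, in cow 489215. KCNRG failed the filter on the SD with all cows, and without cow 489215 its log2 fold change was 2.62 ± 0.21 (adjusted p = 0.00230 by limma).

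KCNE3, a partner of KCNQ1 in epithelia, had 112, 59.1 and 62.4 in LF/LCL and 41.02, 62.6 and 464 in SF/SCL, so that a single cow, 97, stood apart. KCNAB1 (29.3, 173 and 85.2 and 32.7, 124 and 85.6) and KCNIP1 (38.7, 167 and 80.8 and 32.7, 113 and 65.03), cytosolic subunits of fast-inactivating channels, varied within both groups. KCNAB2, a related subunit, was at 42.9, 63.8 and 70.3 and 79.8, 6.66 and 43.4, and was 9.02 times lower in cow 489215 than in the mean of the others. Of 12 rows, 7 were tested, 0 had an unadjusted p under 0.05 in either direction by limma or by edgeR, and 1 in each direction (KCNRG, KCNE4) was called without cow 489215.

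**Figure D2:**
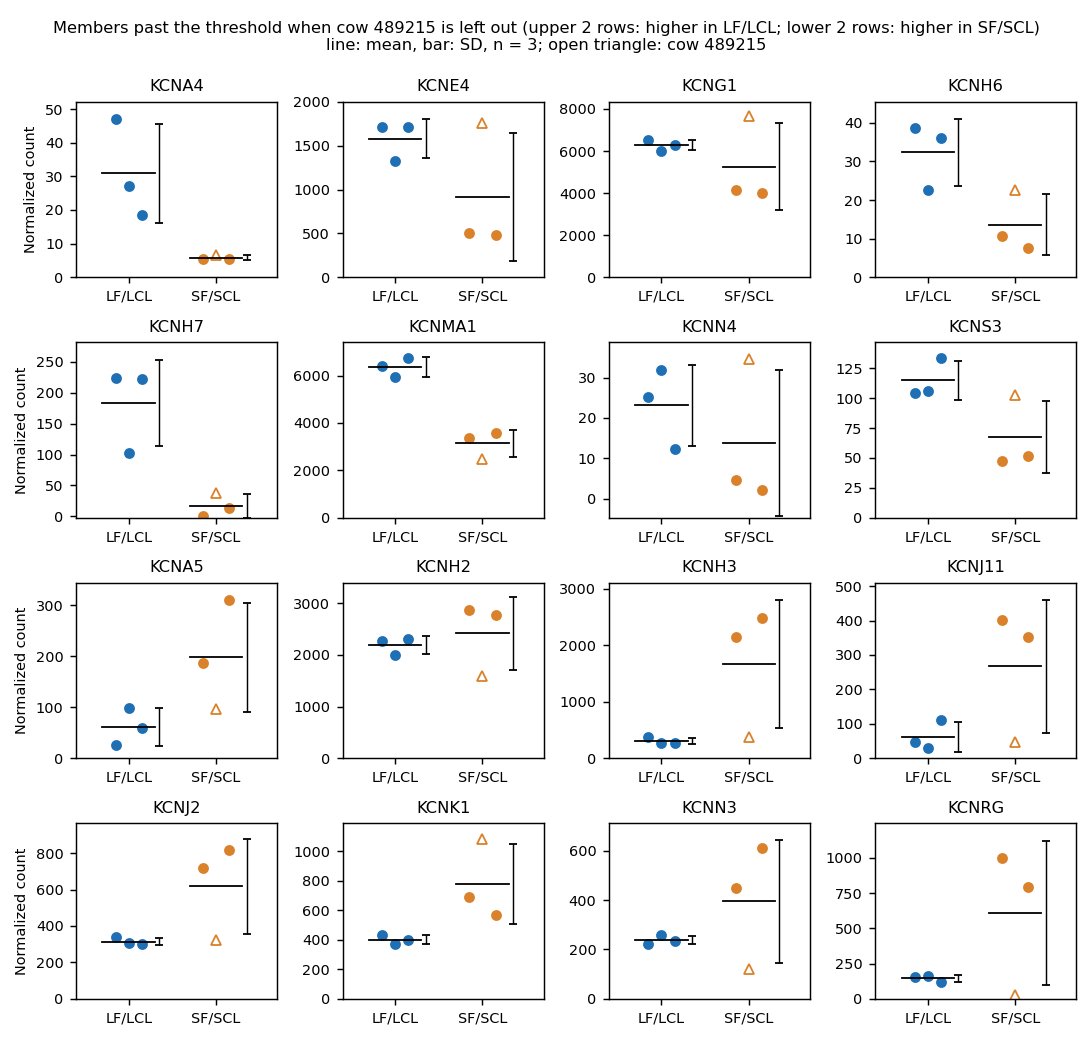
Normalized counts per cow (vertical axes, each from its own scale) of the 16 members past the adjusted threshold of limma without cow 489215, in LF/LCL (blue) and SF/SCL (orange); lines are means and bars SD of 3 cows, and the open triangle is cow 489215. In KCNMA1, KCNA4, KCNH7, KCNS3, KCNK1 and KCNH3 the triangle lies on the side of the other SF/SCL cows, in the other 10 it does not.

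Taking cow 489215 out left 5 libraries and 56 tested members, because KCNJ11, KCNRG, KCNH3 and KCNH7 then passed the filter and KCNJ15 and KCND2 did not. By limma 16 of them (28.6%, against 18.2% of all 15495 tested genes) were called, 8 higher in SF/SCL (10.3% of all genes) and 8 higher in LF/LCL (7.92%). The edgeR test on the same 5 libraries, chosen after seeing the data, called 15 (18.1% of all genes), all of which limma had called too. In 6 of the 16 (KCNMA1, KCNA4, KCNH7, KCNS3, KCNK1 and KCNH3) cow 489215 lay on the side of cows 856 and 97, beyond all LF/LCL cows. It was within the LF/LCL range in 4 (KCNH6, KCNJ11, KCNJ2 and KCNA5), and beyond LF/LCL on the opposite side in 6 (KCNN4, KCNE4, KCNG1, KCNN3, KCNRG and KCNH2). For these last 10 the difference held for 2 of the 3 SF/SCL cows. Cow 489215 was singled out because an earlier description of these libraries had set it apart. Where a cow left out is unlike the rest of its group, the spread within SF/SCL becomes smaller. Calls made without cow 489215 are therefore a description and not independent support.

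**Figure D3:**
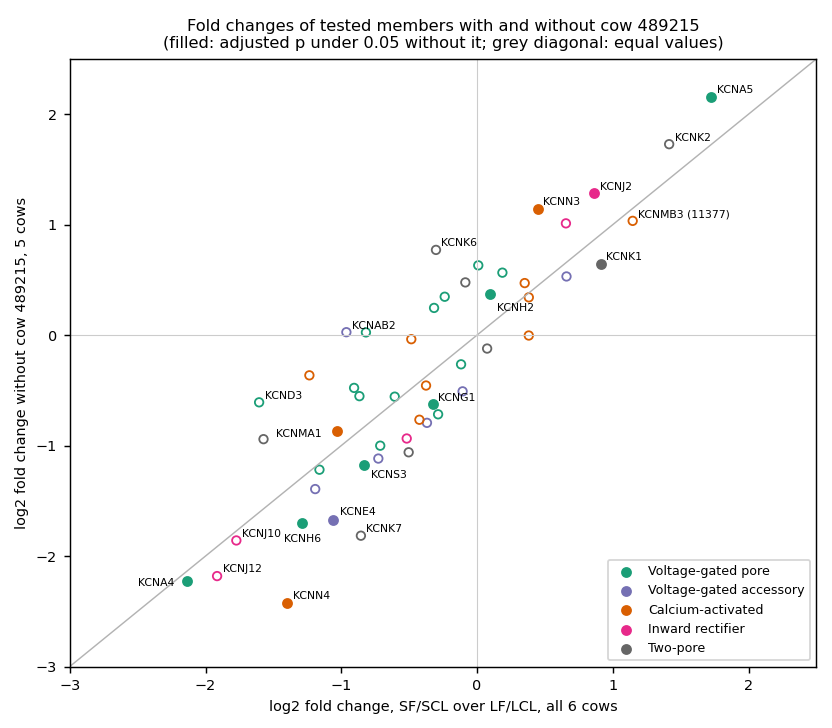
Log2 fold changes of members tested with all 6 cows (horizontal) against those without cow 489215 (vertical), coloured by class; filled points had an adjusted p under 0.05 in limma without that cow and the grey diagonal marks equal values. The axes share 5 of 6 libraries; KCNMA1 and KCNA4 lie near the diagonal and KCNN3 (0.45 and 1.14) and KCNE4 (-1.06 and -1.68) away from it.

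Levels of cell type markers moved with several members. The smooth muscle sum was 2.15 times lower in cows 856 and 97 than in LF/LCL and 1.602 times higher in cow 489215, and KCNE4, KCNG1 and KCNN4 likewise had cows 856 and 97 below all LF/LCL cows and cow 489215 above them. The list was not uniform, since in cow 489215 MYH11 was below all LF/LCL cows and LMOD1 was within their range. The sum of the 5 fibroblast markers was lower in all SF/SCL cows, at 146894, 204688 and 153319 against 287776 to 356045, as was KCNMA1. Singly, LUM, COL1A1 and COL3A1 were lower in all SF/SCL cows, whereas DCN and PDGFRA in cow 489215 were above LF/LCL cow 617. The ciliated sum was 2.21 times higher in cows 856 and 97 and lower in cow 489215 (0.614 of the LF/LCL mean), and KCNN3, KCNH2 and KCNRG likewise had cow 489215 below LF/LCL. Of the 7 ciliated markers with reads, 4 were lowest in cow 489215, RSPH1 and SPAG6 were within the LF/LCL range there, and DNAI1 was above it. OVGP1, the oviduct-specific glycoprotein of secretory cells, had counts of 287, 1782 and 1949.9 in LF/LCL and 271794, 729.6 and 325158 in SF/SCL. Mesothelial markers (4) summed to 2169.7 to 3139 in LF/LCL and 26245, 3478 and 26712 in SF/SCL, as KCNH3 and KCNJ11 were high in cows 856 and 97 only. Singly, MSLN and WT1 were higher in cows 856 and 97 than in any other cow. UPK3B was instead lowest in cow 856, at 92.1, 326 and 87.0 in LF/LCL and 37.2, 141 and 626 in SF/SCL. CALB2 had at most 9 reads in any cow. The part of any of these cell type markers in the channel values was not tested. Endothelial (4 of 5, PECAM1 not found) and leukocyte (5) markers had sums of 9522 to 12591 and 1364 to 2054 in LF/LCL and 8382 to 9146 and 1502 to 1663 in SF/SCL. Of the 6 nerve and glia markers, S100B dominated the sum and was higher in every SF/SCL cow. Its counts were 5400, 4115 and 2584 in LF/LCL and 32285, 8852 and 29027 in SF/SCL. Without S100B the sums were 293 to 627 in LF/LCL and 139, 427 and 187 in SF/SCL, so the list was not uniform.

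**Figure D4:**
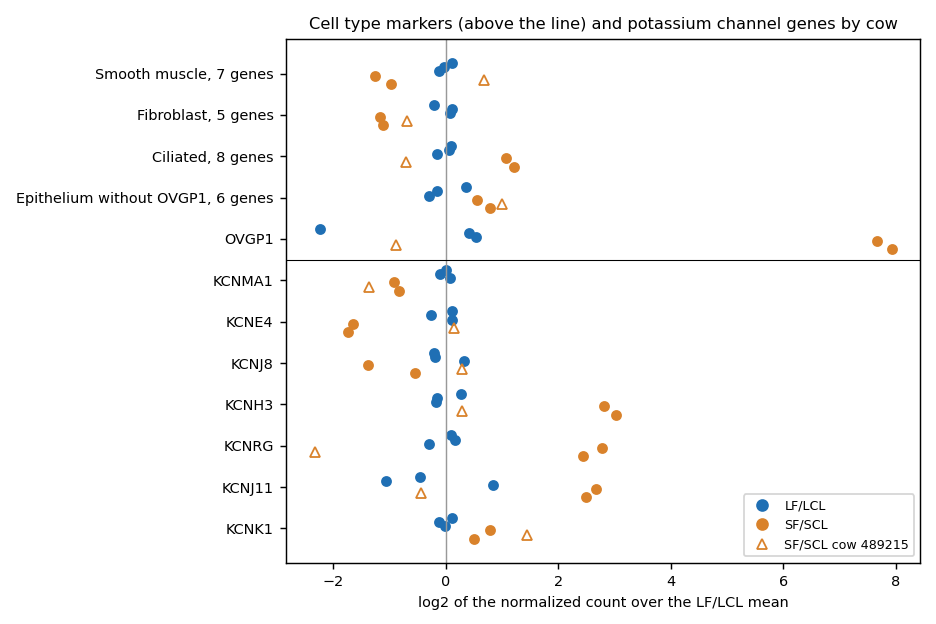
Sums of cell type markers (above the line) and 7 potassium channel genes (below it) in each cow, as log2 of the normalized count over the LF/LCL mean (horizontal axis); the open triangle is SF/SCL cow 489215. KCNE4, like the smooth muscle sum, has cows 856 and 97 below LF/LCL and cow 489215 above it, KCNRG has the reverse, like the ciliated sum, and KCNMA1 has all 3 SF/SCL cows below LF/LCL.

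Genes that work beside the channels were taken from fixed lists. Of 8 partners of BK, ATP-sensitive and KCND channels, 6 were tested. By limma, 0 had an unadjusted p under 0.05 with higher counts in SF/SCL (4.19% of all genes) and 2 (ABCC9, DPP10) in LF/LCL (4.48%). LRRC26, which lets BK channels open at rest in secretory epithelia, was at 1370.1, 1950.5 and 1007 in LF/LCL and 38.7, 2374 and 219 in SF/SCL. It was low in cows 856 and 97 and highest in cow 489215, and was called without that cow (-3.90 ± 0.68, adjusted p = 0.0139 by limma). DPP10, a partner of KCND channels, had 9.42, 26.3 and 11.4 and 0.76, 7.99 and 1.08, every SF/SCL cow being lower. LRRC52 was at 0 in every cow.

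Of 23 potassium pumps, pump subunits and cation chloride cotransporters, 22 were found (FXYD4 was not) and 16 tested. By limma, 1 in each direction had an unadjusted p under 0.05 (4.19% of all genes higher in SF/SCL, 4.48% in LF/LCL). SLC12A2, which loads epithelial cells with potassium and chloride for secretion, had counts of 1841, 2458 and 1565 in LF/LCL and 817, 531 and 655 in SF/SCL. Every SF/SCL cow was lower, and the log2 fold change was -1.55 ± 0.26 with an adjusted p of 0.351 by limma, equal to the smallest over all tested genes. Without cow 489215 it was -1.39 ± 0.21 (adjusted p = 0.00845). FXYD6, a pump modulator, was the member higher in SF/SCL, at 2798, 2659 and 3592 and 4556, 4604 and 5320.2. Among those called without cow 489215, FXYD6 and SLC12A5 were higher in SF/SCL and FXYD1, FXYD5 and SLC12A2 higher in LF/LCL. Of the 4 HCN pacemaker channels, which pass potassium and sodium, 3 were tested and 0 had an unadjusted p under 0.05 by limma.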

How the data were processed

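RNA of the whole isthmus wall was sequenced by the authors as polyadenylated, paired 101-base reads, 1 library per cow, 3 cows per group. Per the study's methods and the submitters' processing notes, reads were filtered with seqyClean 1.3.12, aligned to the masked UMD3.1 assembly with TopHat2 2.0.8 and Bowtie2 2.1.0, and counted per Ensembl gene with HTSeq 0.5.4p2. Strand use in counting is not given in the sources used here. For each library the authors then divided its counts by a DESeq 1.12.1 size factor, which gives the deposited signal values. The table holds nothing else, and 0 of its columns were left unmapped. Values were whole multiples of a step per library (tolerance 0.0006), so that 100% gave whole reads.

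The main test was limma 3.58.1 (R 4.3.3, trend and robust) on log2(value + 1) for genes whose mean exceeded both 5 and the SD, as in the study's filter, without covariates, with Benjamini-Hochberg adjustment over all tested genes. Quasi-likelihood tests of edgeR 4.0.16 and DESeq2 1.42.0 used the recovered reads. Other pseudocounts (0.5 and 8), filters and scalings were tried, and each cow was left out in turn. No label gives a batch. P-values weigh the group difference against the spread between single cows, which limma moderates with a trend over all tested genes. Because the cows were extremes picked by rank, that spread is not that of all animals in a group. Tests were tried on simulated counts. Other steps used Python 3.11.15, pandas 2.3.3, numpy 2.4.6 and matplotlib 3.10.9.

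The members and lists were chosen with earlier results of these data known. Members named with values are the 5 with the highest mean count of each class, the 15 with the smallest unadjusted p and the 10 whose value in cow 489215 lies farthest from the other cows, together with the fixed partner lists. KCNH7 lies outside this rule, and some genes under it are not reported here. Of 91 symbols, 89 were found in a RefSeq table of assembly NIAB-ARS_B.indTharparkar_mat_pri_1.0, used for gene order alone, where 28 overlap another gene.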

Additional observations from a re-analysis of the deposited data

How the results depend on the processing

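No paired analysis was possible because the cow numbers are not shared between groups. The count of members called, 0 with all cows, was 2 with DESeq2, 0 to 16 when each cow was left out, and 15 with edgeR on the 5 libraries other than cow 489215, an alternative chosen after seeing the data. Of the leave-outs, that of cow 489215 alone gave calls. Members with an unadjusted p under 0.05 numbered 9, or 15 with no filter, 3 to 26 when each cow was left out and 25 with edgeR on those 5 libraries. For these alternatives no share of all genes is given, so they show only how the count moved. The class medians of log2 fold change were, for the calcium-activated channels, -0.29 with a pseudocount of 8, -0.47 with scaling by library size, -0.52 to 0.041 when each cow was left out and -0.060 with edgeR on 5 libraries. For the inward rectifiers they were -0.50 to 0.038 and 0.11 in the last pair of settings, and for the two-pore channels -0.38 to 0.18 when each cow was left out. Scaling by library size put the median of all genes at -0.10.

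For the 40 named members 586 values were computed under alternatives; 526 kept their direction and side of the threshold, 31 newly passed it, and 29, from 12 members, changed sign. With edgeR and TMM, edgeR and DESeq2 size factors, DESeq2, and edgeR on 5 libraries, the log2 fold changes that turned positive were 0.079, 0.10, 0.11 and 0.49 for KCNA2, 0.071, 0.092, 0.092 and 0.46 for KCNK5, and 0.25, 0.27, 0.26 and 0.77 for KCNK6. KCNAB2 turned to 0.063 with edgeR on 5 libraries. Leaving out each cow in turn, the log2 fold change ranged from -0.37 to 0.35 for KCNA2, -1.30 to 0.025 for KCNA3, -0.78 to 0.48 for KCNAB1, -1.67 to 0.026 for KCNAB2, -0.053 to 0.37 for KCNH2, -0.89 to 0.15 for KCNIP1, -0.14 to 1.09 for KCNJ16, -0.39 to 0.48 for KCNK5, -0.94 to 0.77 for KCNK6, -0.0036 to 0.73 for KCNN2 and -0.013 to 1.14 for KCNN3. For KCNE3 it was -0.55 without cow 97. The cause was not tested. With 3 cows per group an exact permutation test cannot go below p = 0.1, and members with few reads are limited by depth.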

Other observations

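Further voltage-gated members outside the naming rule, chosen after their values were seen, also differed between the SF/SCL cows. KCNQ3, which forms the neuronal M-current, had normalized counts of 129.8, 211 and 123 in LF/LCL and 212, 54.6 and 149.6 in SF/SCL, lowest in cow 489215. KCNF1, a silent subunit like KCNG1, was at 80.6, 168 and 109.8 and 63.8, 170.4 and 74.8, lowest in cows 856 and 97. KCNC4 stayed within a narrower range, at 79.5, 62.9 and 57.1 and 50.1, 74.6 and 59.6.

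Some members with too few reads for the filter had lower normalized counts in every SF/SCL cow. KCNK4, a stretch-sensitive channel, had 8.37, 3.75 and 6.15 in LF/LCL and 2.28, 1.33 and 0 in SF/SCL. KCNK16 had 4.19, 1.88 and 6.15 and 1.52, 0 and 1.08, and KCNA6 had 4.19, 2.82 and 14.1 and 1.52, 0 and 1.08. Several of these values rest on 3 reads or fewer, the limit that a count of 0 allows, and they were not tested.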
